A study of Rattus norvegicus with 12 samples.

Results

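The 42 genes described here are DNA damage response and repair genes of the rat, and the data are the small circular DNAs of skin that carry pieces of them. A gene was counted through each extrachromosomal circular DNA (eccDNA) that the authors' annotation placed in its exons or introns, also where the annotation named a neighbouring gene beside it. By this rule 269 circles of the 83890 in genes (genic circles) belonged to the 42 genes, and 38 of the 42 genes had at least 1. In all, 13560 genes had a genic circle.

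Cells sense broken DNA through the Atm and Atr kinases and the complex that holds Nbn and Rad50, and p53 and its targets then arrest or remove the damaged cell. Double-strand breaks, the lesion that ionizing radiation is best known for, are rejoined by end joining or copied from the sister chromatid by homologous recombination, while base damage, mismatches, bulky adducts and crosslinks have pathways of their own. The same repair enzymes are also thought to close excised DNA fragments into circles, and a circle from a repair gene is here only a copy of a piece of that locus. It says nothing of whether the gene was expressed.

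Circle-seq, which removes linear DNA with exonuclease and sequences the circles that are left, was run on back skin of wild-type (WT) SD rats. The 12 libraries fell into 3 groups of 4: untreated skin (control) and 2 groups of skin irradiated by electron beam. These were given 2 weekly fractions of 5 Gy each (5 Gy x2) or 4 weekly fractions of 5 Gy each (5 Gy x4). Irradiated skin was taken on day 7 after the last fraction. The sampling time of the control is not in the labels, and the larger total dose also came later, so that dose and time cannot be told apart. Nothing in the labels ties libraries to separate rats, so the p-values below measure only the spread between libraries, which may be technical. The tables hold no RNA, so the labelled tissue could not be checked against marker genes. Genic circles per library ranged from 1350 to 3788 in control, from 2355 to 10708 after 5 Gy x2 and from 7305 to 17285 after 5 Gy x4. The larger libraries therefore carry less counting error. Intervals and limits below cover counting error only and not the spread between libraries. The reads carry no molecular identifiers.

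The number of circles listed from repair genes was larger in the irradiated groups, and by about as much as the number of genic circles in general. Total sequencing depth is unknown, so these are numbers of circles listed and not amounts in the skin. Control libraries 1 to 4 held 5, 14, 13 and 4 circles of the 42 genes, the 5 Gy x2 libraries 20, 36, 39 and 6, and the 5 Gy x4 libraries 28, 51, 51 and 28. Every 5 Gy x4 library lay above every control library, while the fourth 5 Gy x2 library lay inside the control range. The means were 9.0 ± 5.23 (SD, n = 4), 25.2 ± 15.3 and 39.5 ± 13.3 circles, which put 5 Gy x2 at 2.81 times and 5 Gy x4 at 4.39 times the control. For all genic circles the same ratios were 2.84 and 4.72.

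Set against the genic circles of its own library, the repair genes' share was level. It was 0.276, 0.399, 0.343 and 0.296% in the control libraries, 0.302, 0.336, 0.388 and 0.255% after 5 Gy x2 and 0.339, 0.309, 0.295 and 0.383% after 5 Gy x4. The 3 groups overlapped, and the group means of 0.329 ± 0.0548, 0.320 ± 0.0561 and 0.332 ± 0.0389% (SD, n = 4 each) differed by less than their SDs. The 95% Wilson intervals were wide, from 0.117 to 0.555% in the library with the lowest share and from 0.238 to 0.668% in that with the highest. Pooled over libraries, 36 of 10463, 101 of 29731 and 158 of 49366 genic circles lay in the 42 genes, or 0.344% (0.249 to 0.476), 0.340% (0.280 to 0.413) and 0.320% (0.274 to 0.374).

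**Figure D1:**
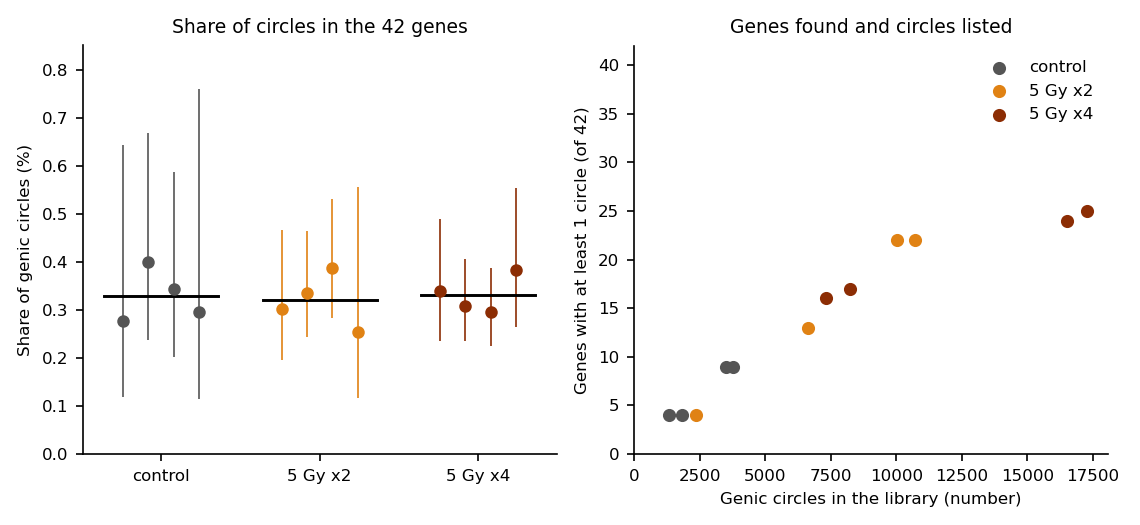
Left, share of genic circles (%) that lay in the 42 genes in each of the 12 libraries, as points with 95% Wilson intervals, with the group mean as a black line; right, number of the 42 genes with at least 1 circle against the number of genic circles of the library. The 3 group means lie between 0.320 and 0.332%, and libraries with more genic circles have more of the genes.

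More of the genes were seen at least once in irradiated skin. The control libraries held circles of 4, 9, 9 and 4 of the 42 genes, the 5 Gy x2 libraries of 13, 22, 22 and 4, and the 5 Gy x4 libraries of 17, 24, 25 and 16. Pooled, 13 genes were found in control, 31 after 5 Gy x2 and 34 after 5 Gy x4, with 25 found only in irradiated libraries and none only in control. This count followed the number of circles listed. Control libraries held only 10463 of the 89560 genic circle counts, so a gene with few circles could be missed in control at an unchanged share. Drawn down to the 1350 genic circles of the smallest library, the expected number of genes was 3.90 ± 0.535 in control, 3.80 ± 0.906 after 5 Gy x2 and 4.11 ± 0.398 after 5 Gy x4 (SD, n = 4 each), and the groups overlapped.

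**Figure D2:**
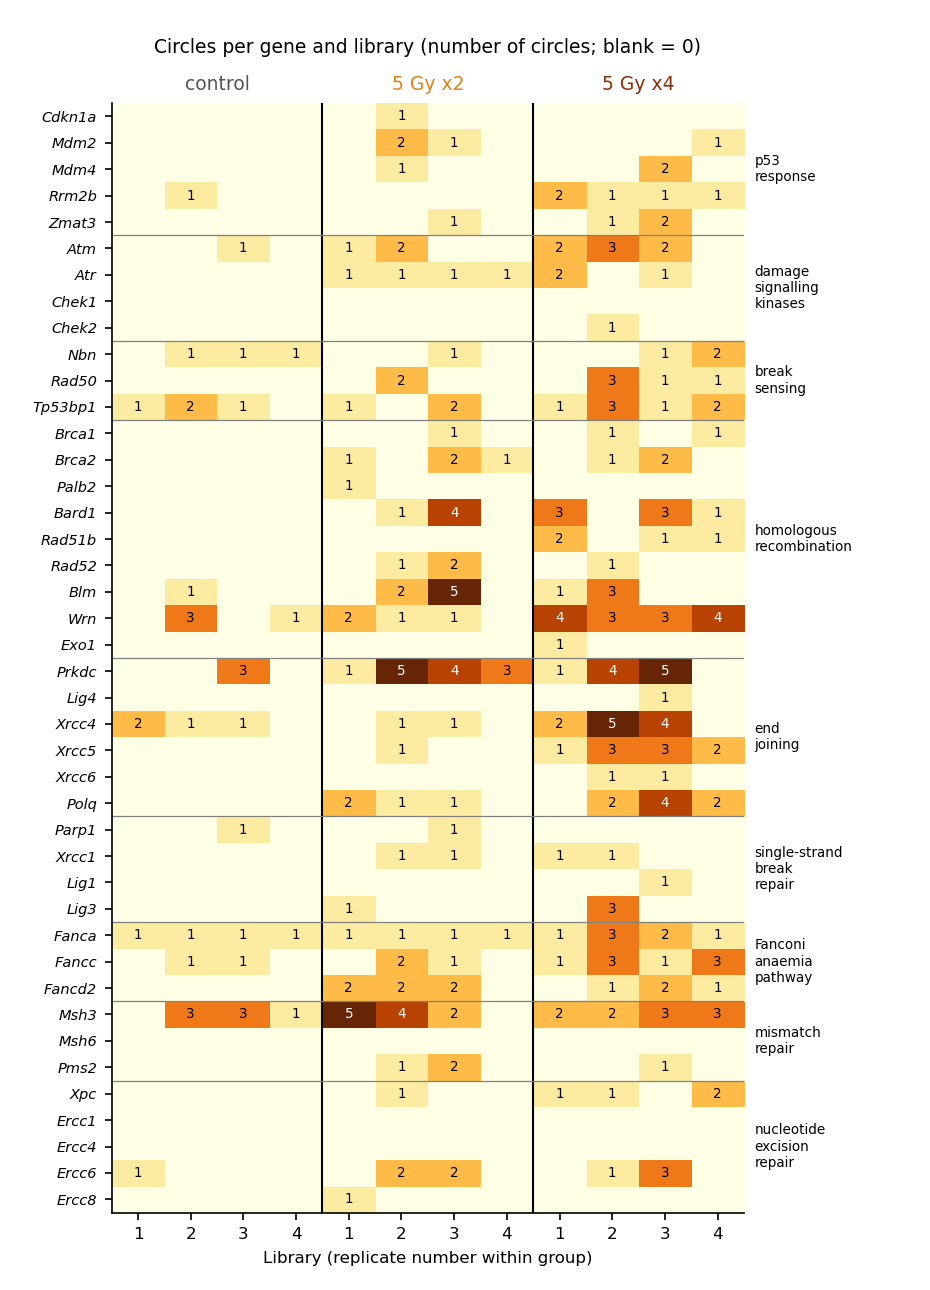
Number of circles of each of the 42 genes (rows, grouped by role) in each library (columns, 4 per group; colour and digit give the number of circles, blank is 0). Fanca alone has a circle in every library, Xrcc5 has none in control and 1 to 3 in each 5 Gy x4 library, and Chek1, Msh6, Ercc1 and Ercc4 have none.

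A change in share was tested gene by gene over the 2503 genes with at least 10 circles summed over the libraries (a circle found in several libraries counts once in each), with edgeR's quasi-likelihood test, the genic circles of each library as library size and Benjamini-Hochberg adjustment at 0.05. Of the 42 genes, 13 reached that number, with 202 of the 295 circle counts among them. None of the 13 passed in any comparison. For 5 Gy x2 against control 0.32% of all tested genes passed (8 genes, all lower), and the lowest adjusted p of the 13 was 0.512. For 5 Gy x4 against control 0.999% passed (1 higher and 24 lower), with a lowest adjusted p of 0.414 among the 13. The split of the calls depended on the scaling, with 5 higher and 1 lower under TMM and 35 higher and 2 lower with DESeq2. Between the irradiated groups 0.0% passed, and the 13 had adjusted p-values of 0.961 to 0.992. At an unadjusted p under 0.05 the background was 7.91%, 11.4% and 3.96% in these 3 comparisons, and the 13 genes gave 0, 1 and 0. DESeq2 called none of the 13 either; in the 5 Gy x4 comparison with control it gave them no adjusted p. Both comparisons with control use the same 4 control libraries.

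The fitted log2 fold changes had a median of 0.07 over the 13 genes and 0.07 over all tested genes for 5 Gy x2 against control, and of -0.22 and 0.21 for 5 Gy x4. From shares pooled by group, with genes that were at 0 put at 3 counts over the group, the medians were -0.92 and -0.28 for 5 Gy x2 and -0.78 and -0.24 for 5 Gy x4. In control 3 counts are 2.87 per 10000, above every irradiated share of the 4 of the 13 genes without a control circle. The rule alone thus put these 4 genes below 0, and 454 of the 2503 tested genes were at 0 in control. These medians therefore depend on the rule. TMM scaling, which sets libraries level on their shared genes, moved the median of all genes by 0.82 and 1.04 in these comparisons, so each direction below is relative to the genic circles as a whole. Circles were not set per length of the gene, so the numbers do not rank the genes against each other.

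Among the genes of the p53 response, 18 circle counts were found, 1 in control, 6 after 5 Gy x2 and 11 after 5 Gy x4, or 0.956, 2.02 and 2.23 per 10000 genic circles. The control value rests on 1 circle, and 3 counts over the control group would be 2.87 per 10000, above both irradiated values. Cdkn1a, the p53 target that halts the cell cycle, had a single circle, of 317 bp, in 1 library of 5 Gy x2. Mdm2, the ubiquitin ligase that degrades p53, had 4 circles and its relative Mdm4 had 3, all in irradiated skin, where most genic circle counts lay. Rrm2b, a ribonucleotide reductase subunit induced by p53, had 1 circle in control, none after 5 Gy x2 and 5 after 5 Gy x4, where every library held 1 or 2. Zmat3, an RNA-binding p53 target, had 4. None of the 5 genes had enough circles to be tested.

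The damage signalling kinases gave 1, 7 and 11 circle counts in control, 5 Gy x2 and 5 Gy x4. That was 0.956, 2.35 and 2.23 per 10000 genic circles, and the control value rests on 1 circle. Atm, the kinase that answers double-strand breaks, was found at 0, 0, 1 and 0 circles in the control libraries, at 1, 2, 0 and 0 after 5 Gy x2 and at 2, 3, 2 and 0 after 5 Gy x4, and the groups overlapped. Its share was 1.06 times that of control after 5 Gy x2 (95% counting interval 0.0848 to 55.4) and 1.48 times after 5 Gy x4 (0.191 to 66.9), with edgeR adjusted p-values of 0.971 and 0.925. The ratios were 0.701 and 0.986 without the second control library, and that of 5 Gy x2 was 0.550 without the second and 1.59 without the third 5 Gy x2 library. Atr, the kinase that answers stalled replication, had exactly 1 circle in each 5 Gy x2 library, 2, 0, 1 and 0 after 5 Gy x4 and none in control. Chek2, which Atm activates, had 1 circle. Chek1, the target of Atr, had 0 of 89560 genic circle counts, which allows up to 0.335 per 10000.

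Of the break sensing genes, Nbn and Tp53bp1 were found in control skin and Rad50 was not. Tp53bp1, whose protein shields broken ends and favours end joining, was at 1, 2, 1 and 0 circles in control, 1, 0, 2 and 0 after 5 Gy x2 and 1, 3, 1 and 2 after 5 Gy x4. The groups overlapped in number and in share. The log2 fold change in share was -1.76 (SE 1.08) for 5 Gy x2 and -1.33 (SE 0.952) for 5 Gy x4 against control, with edgeR adjusted p-values of 0.525 and 0.489. Nbn, which recruits Atm to breaks, had 3, 1 and 3 circle counts in the 3 groups, and Rad50, its partner, had 0, 2 and 5. The 3 genes together came to 6.69, 2.02 and 3.04 per 10000 genic circles, from 7, 6 and 15 circle counts, and this sum was not tested. Most of the 7 control counts came from 1 Tp53bp1 interval and 1 Nbn interval, each met in more than 1 control library.

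The 9 homologous recombination genes held 66 circle counts, 5 in control, 25 after 5 Gy x2 and 36 after 5 Gy x4. That was 4.78, 8.41 and 7.29 per 10000 genic circles, and a difference in this sum was not tested. Control skin had circles only of Wrn and Blm, the helicases that unwind recombination intermediates. Wrn was at 0, 3, 0 and 1 circles in control, 2, 1, 1 and 0 after 5 Gy x2 and 4, 3, 3 and 4 after 5 Gy x4. Every 5 Gy x4 library had at least as many Wrn circles as the highest control library. In share the groups overlapped, and the log2 fold change against control was -1.40 (SE 1.03, edgeR adjusted p = 0.599) for 5 Gy x2 and -0.41 (SE 0.850, edgeR adjusted p = 0.898) for 5 Gy x4. Without the second control library, which held 3 of the 4 control circles, these values were -0.09 and 0.91, and the second was 0.69 under TMM scaling.

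Blm was at 0, 1, 0 and 0 circles in control, 0, 2, 5 and 0 after 5 Gy x2 and 1, 3, 0 and 0 after 5 Gy x4. Most of its irradiated circles thus came from 2 libraries of 5 Gy x2 and 1 of 5 Gy x4. Its share was 2.46 times (0.316 to 111.0) and 0.848 times (0.0839 to 41.8) the control, with edgeR adjusted p-values of 0.747 and 0.963. Without the third 5 Gy x2 library the first ratio was 1.06, without the second or the third 5 Gy x4 library the other was 0.319 or 1.30, and without the third control library they were 1.57 and 0.541. Bard1, the partner of Brca1 in its ubiquitin ligase, had none in control, 0, 1, 4 and 0 after 5 Gy x2 and 3, 0, 3 and 1 after 5 Gy x4. Brca2, a tumour suppressor needed for homologous recombination, had 7 circles and Brca1 had 3, all in irradiated skin, where most genic circle counts lay. Rad51b and Rad52 had 4 each, and Palb2, which links Brca1 to Brca2, and the end-resecting nuclease Exo1 had 1 each.

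The end joining genes gave the most circle counts, 68, and their share was near level at 6.69, 6.73 and 8.31 per 10000 genic circles in control, 5 Gy x2 and 5 Gy x4. Prkdc, the catalytic subunit of DNA-dependent protein kinase, was at 0, 0, 3 and 0 circles in control, 1, 5, 4 and 3 after 5 Gy x2 and 1, 4, 5 and 0 after 5 Gy x4. It was seen in 1 of 4 control and 7 of 8 irradiated libraries. Its share was 1.52 times (0.419 to 8.34) and 0.706 times (0.182 to 3.99) that of control, with edgeR adjusted p-values of 0.820 and 0.898. Without the second control library the ratios were 1.01 and 0.469.

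Xrcc4, the scaffold of DNA ligase 4, was at 2, 1, 1 and 0 circles in control, 0, 1, 1 and 0 after 5 Gy x2 and 2, 5, 4 and 0 after 5 Gy x4, and the groups overlapped. The log2 fold change in share was -2.25 (SE 1.15, edgeR adjusted p = 0.512) for 5 Gy x2 and -0.74 (SE 0.892, edgeR adjusted p = 0.788) for 5 Gy x4. Over circles with at least 2 supporting reads these values were -0.32 and 0.93, and the 5 Gy x4 value was 0.35 under TMM scaling and -0.05 without the first control library. Lig4 itself had 1 circle.

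Xrcc5 encodes the Ku80 subunit of the ring that binds broken ends. It had no circle in the 4 control libraries, 0, 1, 0 and 0 after 5 Gy x2 and 1, 3, 3 and 2 after 5 Gy x4. Its share ran from 1.21 to 2.74 per 10000 genic circles after 5 Gy x4, above the 0.934 of the single 5 Gy x2 library that had one. The 0 of 10463 in control allows up to 2.87 per 10000, which is above the pooled 1.82 after 5 Gy x4, so a difference was not detectable at this depth. The edgeR adjusted p was 0.421 against control and 0.961 against 5 Gy x2. Xrcc6, the Ku70 subunit, had 2 circles, both after 5 Gy x4. Polq, the polymerase of microhomology-mediated end joining, had none in control, 2, 1, 1 and 0 after 5 Gy x2 and 0, 2, 4 and 2 after 5 Gy x4.

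The same limit applies to all 4 tested genes without a control circle. Against the 2.87 per 10000 that the control allows, Bard1 stood at 1.68 after 5 Gy x2 and 1.42 after 5 Gy x4, Polq at 1.35 and 1.62, and Fancd2 at 2.02 and 0.810. No fold change is given for them. Their edgeR adjusted p-values against control ran from 0.421 to 0.820.

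Of the single-strand break repair genes, Xrcc1, the scaffold protein, and Lig3, its ligase partner, had 4 circle counts each. Parp1, the sensor of strand breaks, had 1 in control and 1 after 5 Gy x2, and Lig1, the replicative ligase, had 1 after 5 Gy x4. Together they made 0.956, 1.35 and 1.22 per 10000 genic circles.

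Fanca, a subunit of the core complex of the Fanconi anaemia pathway that unlinks DNA crosslinks, was the only one of the 42 genes with a circle in every library. It had exactly 1 in each control and each 5 Gy x2 library, and 1, 3, 2 and 1 after 5 Gy x4. Its share was 2.64 to 7.41 per 10000 genic circles in control and 1.16 to 1.82 after 5 Gy x4, without overlap. With exactly 1 Fanca circle in each control library, the control range only mirrors the genic totals of 1350 to 3788. The log2 fold change was -1.33 (SE 0.956, edgeR adjusted p = 0.490) for 5 Gy x4 and -1.40 (SE 1.04, edgeR adjusted p = 0.599) for 5 Gy x2. Fanca and Xrcc5 were thus 2 of 13 tested genes whose shares did not overlap between 5 Gy x4 and control, beside 14.0% of all tested genes. For 5 Gy x2 against control it was none, beside 5.43%, and for 5 Gy x4 against 5 Gy x2 it was Xrcc5, beside 2.88%.

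Fancc, another core subunit, was at 0, 1, 1 and 0 circles in control, 0, 2, 1 and 0 after 5 Gy x2 and 1, 3, 1 and 3 after 5 Gy x4. Its share was 0.528 times (0.0605 to 6.32) and 0.848 times (0.169 to 8.20) the control, with edgeR adjusted p-values of 0.820 and 0.937. The first was 0.275 without the second 5 Gy x2 library, and the other 0.308 over hconf circles, a label of the authors. Fancd2, the protein that the core complex monoubiquitinates, had none in control, 2, 2, 2 and 0 after 5 Gy x2 and 0, 1, 2 and 1 after 5 Gy x4.

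Msh3, which recognises insertion and deletion loops in mismatch repair, had the most circle counts of the 42 genes, 28. It was at 0, 3, 3 and 1 circles in control, 5, 4, 2 and 0 after 5 Gy x2 and 2, 2, 3 and 3 after 5 Gy x4. The first control library, at 0, lay below all 5 Gy x4 libraries, so the groups overlapped in share. Pooled, the share was 6.69, 3.70 and 2.03 per 10000 genic circles. The log2 fold change of -1.65 (SE 0.762) for 5 Gy x4 against control had the lowest p of the 13 genes in that comparison, with an edgeR adjusted p of 0.414. For 5 Gy x2 it was -0.83 (SE 0.735, edgeR adjusted p = 0.688), and 0.06 under TMM scaling. Pms2, the endonuclease subunit of mismatch repair, had 4 circles, all in irradiated skin, where most genic circle counts lay. Msh6, which recognises base mismatches, had none.

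In nucleotide excision repair, Ercc6, which acts where transcription stalls at a lesion, had 9 circle counts, 1 in control and 4 in each irradiated group. Xpc, which finds distorted DNA, had 1 after 5 Gy x2 and 4 after 5 Gy x4. Ercc8 had 1, and Ercc1 and Ercc4, the subunits of the nuclease that cuts on the 5′ side of the lesion, had none.

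The circles were short and mostly seen once. Of the 269 entries, 257 came from a single library, and these had a median length of 358 bp (46 to 4187), with 68.5% between 330 and 419 bp against 67.6% of all single-library genic circles. The control had 39.1% of its 23 such circles in that range, with 40.7% for all genic circles. After 5 Gy x2 it was 78.0% of 91 against 70.9%, and after 5 Gy x4 67.1% of 143 against 70.1%. In the 42 genes as in all genes, the percentage was lower in control than in either irradiated group. The longest was an Xrcc4 intron circle of 4187 bp in control library 1, at chr2:18753667-18757853 of build rn6, which had 1 supporting read. A Wrn circle of 2090 bp that reached an exon, at chr16:62546588-62548677, had 4 reads in control library 2.

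**Figure D3:**
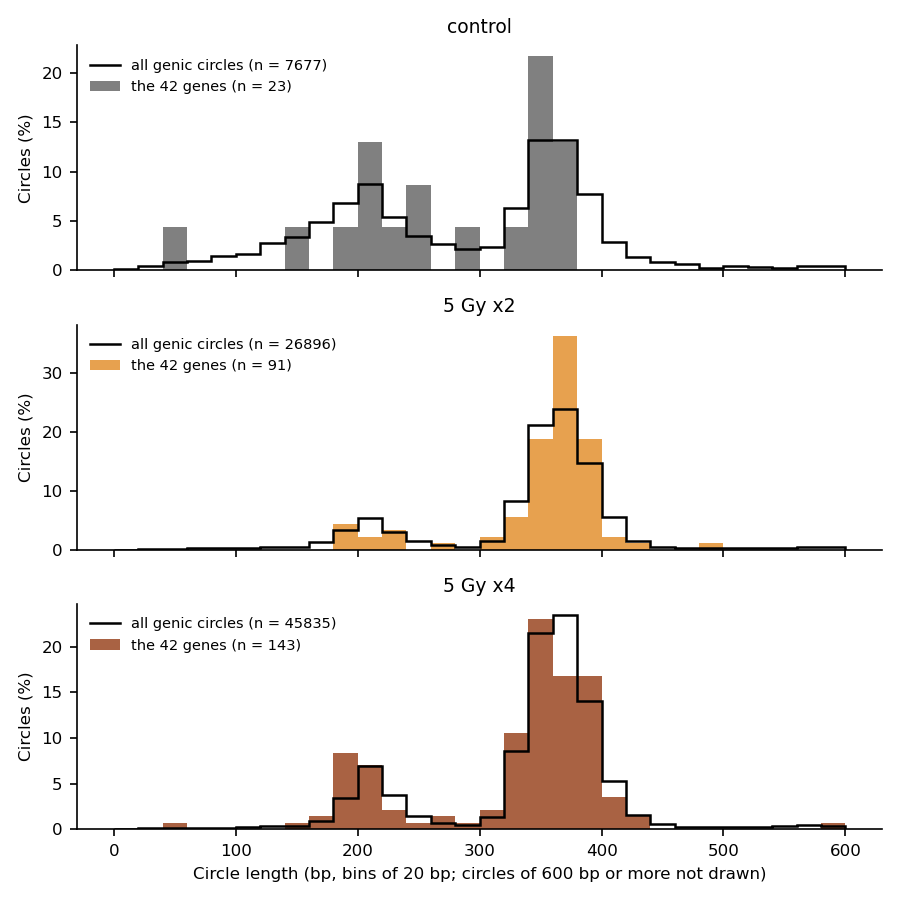
Length of circles found in 1 library (bp, in bins of 20 bp) as a percentage of those circles, for the 42 genes (bars) and for all genic circles (black line), in control, 5 Gy x2 and 5 Gy x4. Bars and line share a main peak that lies between 340 and 400 bp in all groups. The line has a smaller peak near 200 bp that is larger in control, with 8.75, 5.43 and 6.92% at 200 to 220 bp in the 3 groups. The control bars rest on 23 circles.

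Most circles came from introns, and the exonic percentage was above that of genic circles at large, which was not tested. Of the 269 entries 52 (19.3%) overlapped an exon, against 12.8% of all genic entries. Pooled by group the exonic counts were 5 of 36 (13.9%) in control, 17 of 101 (16.8%) after 5 Gy x2 and 30 of 158 (19.0%) after 5 Gy x4, with 9.68, 12.5 and 13.2% for all genic circles. The library values overlapped between groups, at 9.35 ± 11.4, 12.5 ± 9.76 and 17.5 ± 6.04% (SD, n = 4 each). Among genes with at least 10 entries, Atm and Fancd2 had 4 exonic entries of 10 each, whereas Fancc had 0 of 13, Xrcc4 1 of 17 and Msh3 1 of 24. Exon content per length was not set, so this is a description of the lists.

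Support per circle was like that of other genic circles. The median was 5 supporting reads against 4, 42 entries rested on 1 read, and the authors' labels hconf, conf and lconf, which the tables do not define, covered 27.1, 14.5 and 58.4% of the entries against 26.4, 15.1 and 58.5%. Of the entries 10 carried a second annotation, with no gene symbol in 1 of them, such as Rad52 with Wnk1 (3 entries) and Wrn with Purg (2 entries). A circle there is as much a circle of the neighbour.

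A few intervals were met in several libraries, and they made up a larger part of the control counts than of the irradiated ones. Of the 42 genes' entries 12 were found in at least 2 libraries, or 4.46% against 4.15% of all genic entries. They made up 36.1% of the control counts (13 of 36), against 9.90% after 5 Gy x2 and 9.49% after 5 Gy x4. The corresponding values for all genic circles were 26.6, 9.54 and 7.15%. Per library the percentages for the 42 genes were 39.1 ± 8.17, 11.9 ± 4.59 and 10.2 ± 3.07 (SD, n = 4 each), with all control libraries above all irradiated ones. All genic circles separated in the same way, at 21.7 to 44.7% in the control libraries and at most 18.4% in an irradiated library.

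The interval found most often lay in a Fanca intron at chr19:56087848-56088581 (rn6), in 9 libraries. It had 23, 46, 62 and 66 supporting reads in control, 63, 0, 0 and 21 after 5 Gy x2 and 23, 14, 16 and 0 after 5 Gy x4. Of the 3 libraries without it, the third of 5 Gy x2 and the fourth of 5 Gy x4 had the neighbouring Fanca interval chr19:56087431-56087794. A Tp53bp1 intron interval at chr3:113176613-113177680 was in 6 libraries, with 56, 17, 87 and 0 reads in control, 90, 0, 25 and 0 after 5 Gy x2 and 0, 0, 38 and 0 after 5 Gy x4. It was met in 3 of 4 control and 3 of 8 irradiated libraries.

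Such an entry is a merged interval and not 1 recurring molecule. The 9 Fanca calls ran from 298 to 727 bp, had 9 different pairs of ends and shared only 237 bases. The 6 Tp53bp1 calls ran from 402 to 949 bp, also with no pair of ends alike, and shared 369 bases. A Wrn interval at chr16:62564310-62564908 joined 4 calls with 4 different pairs of ends. Only in a short Nbn interval, chr5:29652190-29652288, did 2 of 3 calls have the same ends, for a circle of 92 bp. That makes 1 of 12 such entries with equal ends in 2 libraries, against 388 of 3482 (11.1%) over all genes.

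**Figure D4:**
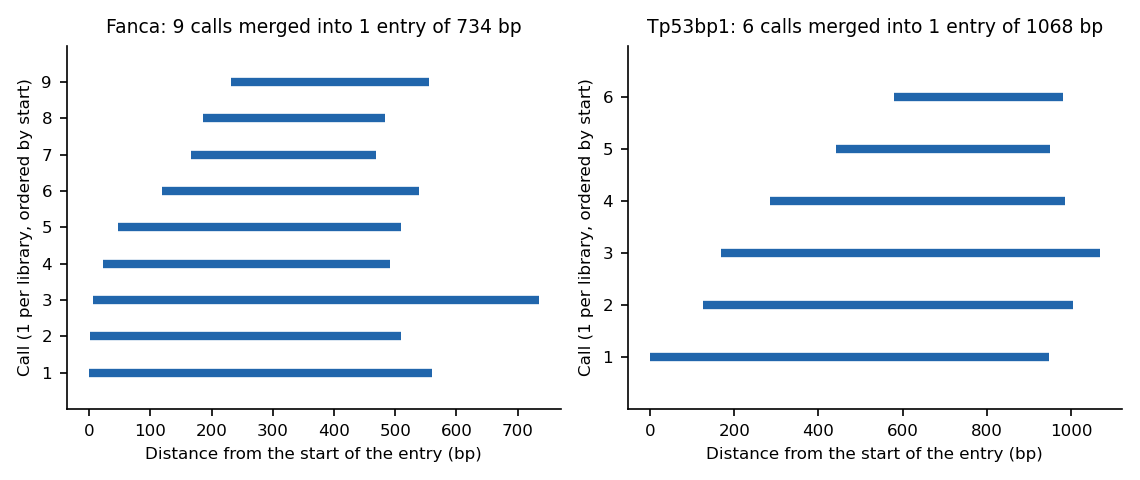
Extent of each library's call (bars, 1 per library, ordered by start) within the 2 entries of the 42 genes found in most libraries, as distance in bp from the start of the merged entry: Fanca with 9 calls and Tp53bp1 with 6. All calls of an entry overlap, and no 2 of them have the same ends.

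Overlap went beyond the merged entries. Of the 269 entries 40 overlapped another entry of the 42 genes. In an Msh3 intron 5 entries lay between positions 21806249 and 21806843 of chromosome 2, and the widest of them, of 382 bp, had 143 reads, 18 in control library 3 and 125 in 5 Gy x2 library 1. Beside the Tp53bp1 interval lay circles of 1011 bp with 74 reads and of 668 bp with 24.

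By supporting reads the groups did separate. Circles of the 42 genes held 0.548, 0.513, 0.514 and 0.619% of the reads on genic circles in control, 0.392, 0.222, 0.305 and 0.258% after 5 Gy x2 and 0.257, 0.337, 0.366 and 0.424% after 5 Gy x4. All control libraries were above all irradiated ones, with means of 0.548 ± 0.0497, 0.294 ± 0.0735 and 0.346 ± 0.0695% (SD, n = 4 each). The Fanca and Tp53bp1 intervals described above were the entries with most reads, 334 and 313, and held 20.1% of the 3214 reads. Without them, a comparison chosen after the data were seen, the means were 0.273 ± 0.174, 0.235 ± 0.0588 and 0.316 ± 0.0832% and the groups overlapped, with the first control library at 0.0264%.

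**Figure D5:**
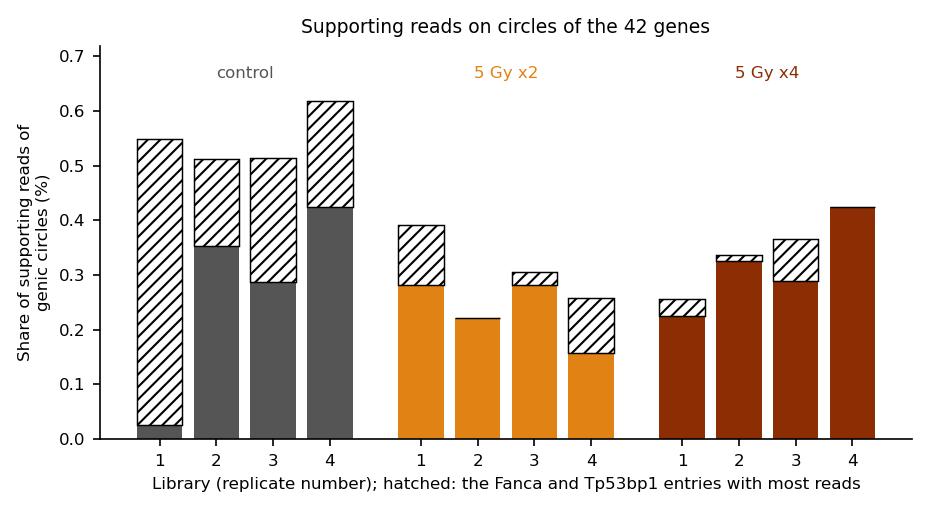
Share of the supporting reads of genic circles (%) that lay on circles of the 42 genes in each library, split into the Fanca and Tp53bp1 entries with most reads (hatched) and all other entries (filled). The full bars of the 4 control libraries, 0.513 to 0.619%, stand above those of all irradiated libraries, and the filled parts overlap.

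Outside exons and introns, 14 circles lay within 2 kb of 12 of the genes, 6 upstream and 8 downstream. They were 2 of 945 such flanking counts in control (0.212%), 4 of 2637 after 5 Gy x2 (0.152%) and 8 of 4255 after 5 Gy x4 (0.188%). Both control ones came from the third library and lay beside Bard1 and Xrcc5, which had no genic circle in control. Of the 157 large circles that the authors list apart as ecDNA, 6 spanned 4 of the 42 genes: Mdm4, Lig4, Fanca and Ercc8. They were 2.99 to 9.07 Mb long, named 19 to 127 genes each and had 1 to 59 supporting reads.

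A wider list of 151 other genes of the same pathways was also without a gene that passed. Of these 108 had a genic circle, 17 were tested and none passed edgeR's test in any comparison. At an unadjusted edgeR p under 0.05 there were 3 for 5 Gy x2 against control, 1 higher and 2 lower. There was 1 for 5 Gy x4 against control and 1 between the irradiated groups, both higher. Over all tested genes the background was 7.91%, 11.4% and 3.96% in these 3 comparisons. The pooled share of the 151 genes was 0.487% in control (51 counts), 0.542% after 5 Gy x2 (161 counts) and 0.612% after 5 Gy x4 (302 counts). A difference in this sum was not tested. Those with many counts included Mgmt, which removes alkyl groups from guanine, with 27, and the translesion synthesis genes Polk with 20 and Rev1 with 19. Mgmt was at 0 in all 4 control libraries, at 3, 6, 2 and 0 after 5 Gy x2 and at 1, 11, 3 and 1 after 5 Gy x4. Its pooled share of 3.70 and 3.24 per 10000 was above the limit of 2.87 per 10000 that 3 counts over the control group give, but was 2.63 and 1.52 without the second library of each irradiated group, which is below it. The edgeR adjusted p-values were 0.473 and 0.354. Polk had 5, 6 and 9 counts in the 3 groups, and Rev1 1, 6 and 12.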

How the data were processed

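Circular DNA libraries were made, per the labels' protocols, from plasmid-column eluates treated with exonuclease. The authors deposited 12 tables of counts, whole-number supporting reads per circle and library with no normalization, and 2 annotation tables with position (build rn6), length, gene overlap and label. BWA, Picard and bedtools are named in the submitters' processing notes without versions; for the circle caller and the merging rule, nothing is given in the sources used here. Start positions, which the tables count from 0, are written here as counted from 1.

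The members and lists were chosen with earlier results of these data known. Gene symbols were taken from the annotation (42 of 42 matched RefSeq). A circle counted as present at 1 supporting read. Circles per gene were tested with edgeR 4.0.16 (R 4.3.3) in 1 fit of all 12 libraries, with group only and library size set to genic circles; DESeq2 1.42.0 was an alternative. The test was tested on simulated data, where it missed most increases of 2 or 4 times for 5 Gy x4 against control. Python 3.11.15 (pandas 2.3.3, scipy 1.17.1) gave the other values. Ratios have exact conditional 95% intervals. The SE of a log2 fold change is its size over the square root of edgeR's F statistic, and is approximate. Supporting reads per library ranged from 35525 to 404815; total sequencing depth is unknown.

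Every member is in scope; the 13 tested ones have each library's value, the others totals. Circles named singly are those in 2 or more libraries, the 5 longest or the 5 with most reads, and of other pathway genes the 4 with most counts, 1 of which is not reported here; further circles and genes named were chosen after their values were seen.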

Additional observations from a re-analysis of the deposited data

Results flagged for a closer look

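Over 63 sets of 4 library values, 5 had 1 library far from the other 3 by Dixon's criterion at 95%. Chance gives this in about 1 of 20 sets of continuous values, but in counts this small any set with 3 equal values and 1 other meets it. Atm had 1 circle in the third control library and 0 in the others, and Blm had 1 in the second control library and 0 in the others. Prkdc had 3 circles in the third control library and 0 in the other control libraries. Xrcc5 had 1 circle in the second 5 Gy x2 library and 0 in the others. Fancd2 had 0 circles in the fourth 5 Gy x2 library, the smallest of its group at 2355 genic circles, and 2 in each of the others.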

How the results depend on the processing

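No gene of the 42 passed under an alternative that tested it: no filter tested 38 of them, hconf circles 2, the others 8 to 13, and filterByExpr, which kept 14 genes, none. DESeq2 gave the 13 genes no adjusted p for 5 Gy x4 against control. Their lowest adjusted p over all alternatives against control was 0.229 (5 Gy x2) and 0.118 (5 Gy x4), both under TMM, and 0.649 between the irradiated groups. The counts over all genes moved more: for 5 Gy x2 (8 as reported) they were 0 with TMM, 0 with DESeq2, 5 with filterByExpr, 4 with no filter, 0 over hconf circles and 5 with a replicate block, and 2 to 8 with 1 library left out, lower by over 1.5 times without control library 2, 3 or 4 or 5 Gy x2 library 1 or 3. For 5 Gy x4 (25) they were 6 with TMM (5 higher, 1 lower), 37 with DESeq2 (35 higher, 2 lower), 8 with filterByExpr, 12 with no filter, 0 over hconf circles and 24 with a replicate block, and 5 to 28 with 1 library left out (12, 14 and 5 without control library 2, 3 or 4, and 16 without 5 Gy x4 library 3). The replicate block changed no call among the 42 genes. Same-numbered libraries of different groups correlated at -0.0203 to 0.107, and differently numbered ones at -0.0492 to 0.0644. The highest value, 0.107, was that of control library 4 with 5 Gy x2 library 4. All values were small, and the numbers were not taken to pair the libraries. A pairing was not tested. The ratio of the 42 genes' share to control was 0.536 and 0.631 by supporting reads (0.861 and 1.16 without the Fanca and Tp53bp1 entries with most reads, left out after the data were seen, and then 1.34 between the irradiated groups) and 1.32 over hconf circles for 5 Gy x4, and with 1 library left out ran from 0.906 to 1.05 and from 0.957 to 1.09. The ratio of genes found was 0.976 and 1.05 at the smallest genic total. Log2 fold changes turned for Msh3 after 5 Gy x2 (0.062 with TMM, 0.044 with DESeq2) and, after 5 Gy x4, for Wrn (0.691 and 0.748, and 0.909 at the highest and -1.038 at the lowest with 1 library left out) and Xrcc4 (0.349 and 0.219, and 0.929 at 2 or more supporting reads). The cause was not tested. Counts of 0 to 5 circles per gene and library limit what any of these tests can show.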
